A study of Strongylocentrotus purpuratus with 6 samples.

Results

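Very long Pol II ChIP-seq peaks of the 20 h sea urchin embryo were described here. They were chosen by their length alone, as the peaks of the deposited list that span more than 6000 bp, and they number 530 of 554846 peaks (0.0955%). The study mapped RNA polymerase II (Pol II) by ChIP-seq in whole embryos of the purple sea urchin Strongylocentrotus purpuratus at the hatching blastula stage, to find out which genomic marks predict active enhancers. The 3 Pol II ChIP samples were precipitated from chromatin extracts 210, 211 and 179 with the antibody 8WG16 (Abcam ab817) against the YSPTSPS repeat of the C-terminal domain, and the 3 Input samples are chromatin of the same extracts without precipitation. Embryos of both groups were grown at 15 °C, and the labels name no genotype, strain or drug. The authors combined the replicates before calling peaks, so there is 1 peak list for all samples. It holds positions only, on scaffolds of genome version 3.1, with no score, read count or signal. The depth behind a peak and the spread between replicates cannot be read from it and were not analysed here, no error over embryos can be given, and every value is a description without a test.

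Pol II transcribes protein-coding genes. In ChIP-seq it is found as short regions of signal at promoters and enhancers and as extended regions along the bodies of transcribed genes. The 8WG16 antibody binds the C-terminal repeats of its largest subunit. A cis-regulatory module (CRM) is a stretch of DNA that controls the transcription of a gene and can lie upstream of it, in its introns or downstream of it. Many of the genes whose CRMs were tabulated in the study encode transcription factors of the embryonic gene regulatory network.

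Lengths of the members ranged from 6009 to 61060 bp. The mean was 10140.9 ± 5573.5 bp (SD over the 530 peaks), the median was 8264.5 bp, and the quartiles were 6830.25 and 11508.5 bp. The lengths were skewed towards the lower limit. A total of 156 members (29.4%) were 7000 bp or shorter and 85 lay between 7000 and 8000 bp, whereas 184 (34.7%) exceeded 10000 bp and 24 (4.53%) exceeded 20000 bp. The 184 peaks over 10000 bp held 52.2% of the bases of all members. Together the members covered 5374654 bp, which is 2.87% of the bases under all peaks. The 25625 peaks of 1000 to 6000 bp held 22.9% of the peak bases with a median length of 1390 bp, and the 528691 peaks under 1000 bp had a median length of 210 bp. These figures follow from the limit on length and are given as a description.

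**Figure D1:**
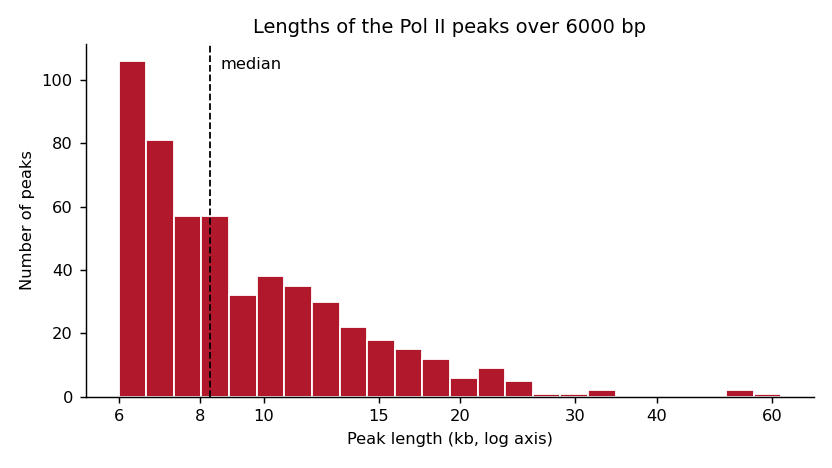
Histogram of the lengths of the 530 Pol II peaks over 6000 bp. The x axis gives the length in kb on a log scale, the y axis the number of peaks, and the dashed line the median of 8264.5 bp. Counts fall with length, and 3 peaks of over 50 kb stand apart from the rest.

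No natural gap marked the limit of 6000 bp. The 3 shortest members spanned 6009 bp (Scaffold1294, 191921 to 197929), 6011 bp (Scaffold17, 1083022 to 1089032) and 6033 bp (Scaffold455, 392633 to 398665). The 3 longest peaks below the limit spanned 5999 bp (Scaffold2224, 76551 to 82549), 5996 bp (Scaffold186, 41098 to 47093) and 5994 bp (Scaffold3192, 18690 to 24683).

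The longest peak covered 61060 bp of Scaffold122, from 133333 to 194392. The next were a pair of neighbours on Scaffold317, of 53384 bp (153723 to 207106) and 53368 bp (207111 to 260478), with 4 bp between them. Joined, this pair would span 106756 bp without a further peak in between. The remaining members of the 10 longest had between 24581 and 34246 bp. They lay on Scaffold2739 (58718 to 92963, 34246 bp), Scaffold468 (416867 to 448242, 31376 bp) and Scaffold136 (732812 to 761657, 28846 bp). Further ones lay on Scaffold244 (667759 to 694966, 27208 bp), Scaffold420 (246376 to 272038, 25663 bp), Scaffold2455 (111815 to 137337, 25523 bp) and Scaffold662 (217879 to 242459, 24581 bp). None of these 10 overlapped a CRM of the study's table, but only 31 of all 530 members (5.85%) did. The 34246 bp peak was the only one of the 10 with no other member on its scaffold, whereas the 28846 bp peak on Scaffold136 stood 513 bp from a member of 17895 bp. The 10 longest peaks together held 6.80% of the members' bases.

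Members were found on 360 of the 19230 scaffolds that carry any peak. Of these 360 scaffolds, 261 carried 1 member and 99 carried at least 2, and these 99 held 269 of the 530 members. Only 21 scaffolds carried 4 or more, with 96 members among them. Scaffolds with a longer span up to their last peak held more members per Mb. There were 0.862 members per Mb on the 90 scaffolds over 1 Mb and 0.713 on the 390 scaffolds of 500 kb to 1 Mb. The density was 0.513 on the 1650 scaffolds of 100 to 500 kb, 0.356 on the 2925 scaffolds of 10 to 100 kb and 0.0468, with 1 member, on the 14175 shorter ones. All peaks together also had a higher density on the scaffolds over 1 Mb (673.2 per Mb) than on those of 10 to 100 kb (517.4 per Mb), but their density was highest on the scaffolds under 10 kb (1059.1 per Mb), where members were fewest per Mb. A short scaffold cannot hold a long peak, so its length and the density of members cannot be told apart here. Of the 530 members, 8 were the first and 7 the last peak of their scaffold, and 1 of these, of 11668 bp on Scaffold30177, was its only peak.

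The scaffold with the most members was Scaffold662. Its 8 members had 6437 bp (150399 to 156835), 8594 bp (172693 to 181286), 6592 bp (184882 to 191473), 10194 bp (191663 to 201856), 15677 bp (202108 to 217784), 24581 bp (217879 to 242459), 22751 bp (242573 to 265323) and 9312 bp (266853 to 276164). They add up to 104138 bp, or 35.4% of the scaffold up to its last peak. Scaffold2455 had a like share, 36.1%, from 5 members of 18263 bp (91981 to 110243), 25523 bp (111815 to 137337), 9459 bp (137378 to 146836), 8124 bp (149983 to 158106) and 8874 bp (177064 to 185937).

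Scaffold122 held 6 members within 151225 bp. After the 61060 bp peak came members of 10739 bp (198361 to 209099), 15195 bp (222634 to 237828), 14490 bp (237863 to 252352), 15672 bp (253075 to 268746) and 6285 bp (278273 to 284557). Members covered 81.6% of this stretch, and all peaks together 97.7%. On Scaffold1440, the site of Chordin, 6 members fell within 66472 bp and all of them overlapped CRMs of this gene, as described with the genes. Scaffold59 also had 6 members, of 10253 bp (7300 to 17552), 8056 bp (29047 to 37102), 8555 bp (38119 to 46673), 6891 bp (186477 to 193367), 10845 bp (506590 to 517434) and 6900 bp (522941 to 529840). They were spread over 522541 bp, of which they covered only 9.86%.

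**Figure D2:**
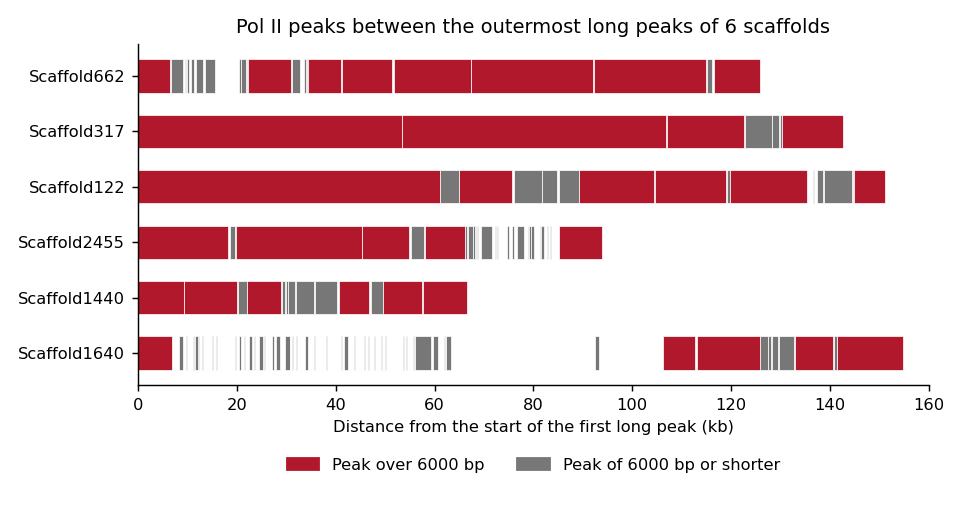
Pol II peaks on 6 scaffolds between their outermost members, as distance in kb from the start of the first peak over 6000 bp. Red blocks are peaks over 6000 bp, grey blocks are peaks of 6000 bp or shorter, and thin white lines separate neighbouring peaks and are not to scale. The stretch on Scaffold317 is 99.6% under peaks, whereas on Scaffold1640 a lone long peak stands 99315 bp from the other 4.

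Members lay close to other peaks. The median gap from a member to the nearest peak on its scaffold was 123 bp (quartiles 62 and 238 bp, n = 529), compared with 173 bp for peaks of 1000 to 6000 bp, 296 bp for peaks under 1000 bp and 287 bp for all peaks. A neighbour within 200 bp was present for 373 members (70.5%), against 55.7% of the peaks of 1000 to 6000 bp and 38.3% of all peaks. In 112 members (21.2%) the gap was 50 bp or less, no longer than a sequencing read, against 10.5% of all peaks. The largest such gap of a member was 2629 bp.

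The peaks next to a member were longer than those next to other peaks. The adjacent peaks had a median length of 625 bp, against 315 bp beside peaks of 1000 to 6000 bp and 217 bp beside all peaks. An adjacent peak of 1000 bp or more was found for 312 of 529 members (59.0%), against 26.7% of the peaks of 1000 to 6000 bp and 8.79% of all peaks. An adjacent peak over 6000 bp was found for 85 members (16.1%), against 1.14% of the peaks of 1000 to 6000 bp and 0.123% of those under 1000 bp.

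Members also clustered over larger distances. Among the 486 members with complete windows of 10 kb on both sides, 155 (31.9%) had another member within 10 kb. The share was 4.95% for the peaks of 1000 to 6000 bp, 1.14% for the peaks under 1000 bp and 1.35% for all peaks. Within 1 kb the share of members was 17.9%, against 1.41% of the peaks of 1000 to 6000 bp, and within 100 kb it was 42.4%, against 15.7%. On the scaffolds that carry a member, 15.4% of the peaks of 1000 to 6000 bp had a member within 10 kb, against 31.9% of the members. These scaffolds were picked by a member, and the part of the scaffold in the difference was not tested. The share with another member within 10 kb was 68.2% (15 of 22) for members over 20000 bp, 36.9% for those of 10000 to 20000 bp, 34.4% for those of 8000 to 10000 bp and 23.7% for those of 6000 to 8000 bp.

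**Figure D3:**
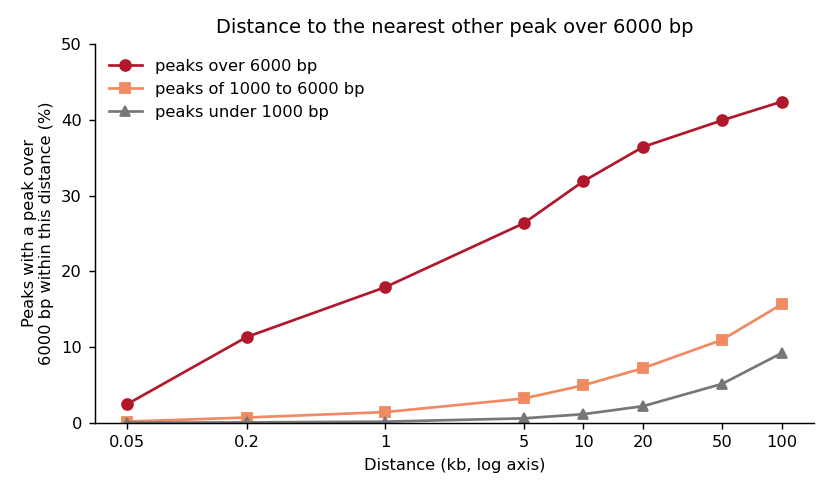
Share of peaks, in %, with a peak over 6000 bp within the distance on the x axis (kb, log scale), for peaks over 6000 bp (red circles), of 1000 to 6000 bp (orange squares) and under 1000 bp (grey triangles), all with complete 10 kb windows. At 10 kb the values are 31.9%, 4.95% and 1.14%.

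Of 170 pairs of successive members on a scaffold, 96 were at most 10 kb apart, 29 at most 200 bp and 6 at most 50 bp. In 45 pairs no other peak lay between, and their gaps ran from 4 to 1141 bp with a median of 130 bp. The 6 shortest gaps were 4 bp on Scaffold317, 5 bp on Scaffold304 (members of 7145 and 13681 bp), 34 bp on Scaffold122, 40 bp on Scaffold2455, 42 bp on Scaffold376 (the Id gene) and 49 bp on Scaffold50. Each of these gaps is shorter than a read of 50 bp, and whether reads spanned them is not recorded in the list.

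Members linked by distances of at most 10 kb formed 63 clusters with 159 members. There were 42 clusters of 2 members, 12 of 3, 8 of 4 and 1 of 7, and the other 371 members stood alone. The clusters spanned 13916 to 142550 bp with a median of 27115 bp. Peaks of any length covered a median of 98.1% of a cluster (range 77.5 to 99.98%). A cluster starts and ends with a member and the members' own bases are counted, so a high share is built in. The cluster of 7 lay on Scaffold662 and spanned 103472 bp, of which 97.6% was under peaks. The widest cluster joined 4 members on Scaffold317, the pair of over 53 kb and members of 15695 bp (260697 to 276391) and 12222 bp (284051 to 296272), over 142550 bp with 99.6% under peaks. Clusters of 4 also lay on Scaffold2455 (66126 bp), on Scaffold122 (61924 bp) and over Dach on Scaffold1640 (48683 bp, 97.3% under peaks).

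The flanks of the members held slightly fewer peaks but more bases under peaks than the flanks of other peaks. Within 10 kb on both sides, the 486 members had a median of 14 other peaks (quartiles 10 and 18), against 17 for peaks of 1000 to 6000 bp and 15 for all peaks. The mean length of these flanking peaks had a median of 745.6 bp for members, against 411.7 bp for peaks of 1000 to 6000 bp and 287.9 bp for all peaks. Other peaks covered a median of 55.9% of the members' flanks (quartiles 39.5 and 71.9%), against 37.2% for peaks of 1000 to 6000 bp, 22.3% for peaks under 1000 bp and 22.9% for all peaks. More than 50% of the flanks were covered in 296 members (60.9%), against 28.5% of the peaks of 1000 to 6000 bp and 8.34% of all peaks. Less than 20% was covered in 20 members (4.12%), against 17.5% of the peaks of 1000 to 6000 bp and 42.2% of all peaks.

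Flank coverage differed between members with and without a long neighbour. In the 331 members with no other member within 10 kb, the median flank coverage was 46.9%, with 16 flanking peaks, and in the 155 members with one it was 78.3%, with 9 flanking peaks. The part of the long neighbour inside the window counts as coverage here. The split itself therefore raises the coverage and leaves less room for other peaks. Peaks of 1000 to 6000 bp with no member within 10 kb had a median coverage of 35.9% (n = 21591) over all scaffolds, and of 40.3% (n = 6172) on the scaffolds with a member.

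Coverage declined with distance from the member. In windows of 1 kb it averaged 64.2% between 1 and 2 kb from the edge and 51.3% between 9 and 10 kb. The same windows gave 45.1% and 35.0% around peaks of 1000 to 6000 bp, and 26.6% and 24.6% around peaks under 1000 bp. The first kb was lower in all 3 groups, at 53.7%, 39.2% and 22.7% in the order above. It contains the gap that ends the peak. Coverage before and after the members was alike, with medians of 53.5% and 54.4% on the left and on the right as the scaffold is numbered.

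**Figure D4:**
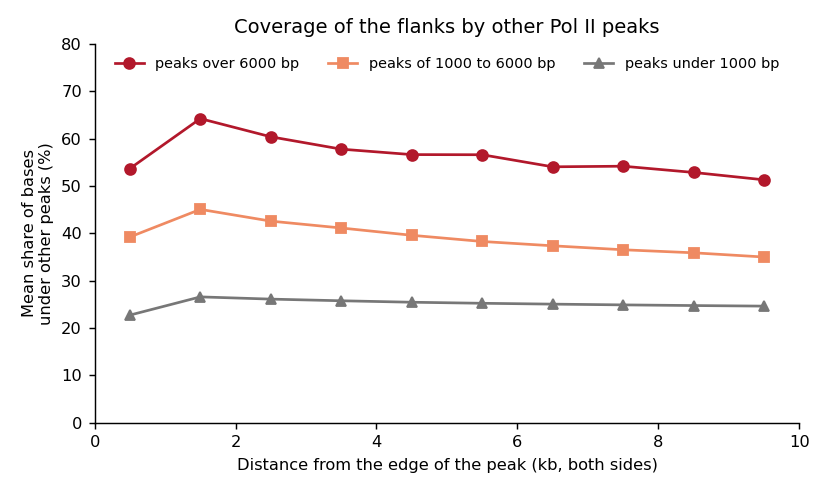
Mean share of bases under other Pol II peaks, in %, in windows of 1 kb up to 10 kb from the edge of a peak (both sides averaged), for 486 peaks over 6000 bp (red circles), 22715 peaks of 1000 to 6000 bp (orange squares) and 457735 peaks under 1000 bp (grey triangles). Coverage around the peaks over 6000 bp stays above that of the other groups in each window, between 51.3 and 64.2%.

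Single members differed in their flanks. The more covered side had a median of 76.6% and the less covered side 38.3%, and the median difference between the sides was 25.5 percentage points, against 10.3 for all peaks. In 88 members (18.1%) the sides differed by over 50 points, against 1.81% of all peaks. The first of the pair on Scaffold317, for example, had 3.28% of its left and 99.96% of its right flank under peaks. Both sides exceeded 50% in 166 members and both stayed under 20% in 6. These counts were not made for other peaks, so they cannot be read as particular to members.

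The most isolated members were those of 8050 bp on Scaffold167 (237064 to 245113), with 3.86% of the flanks under peaks, 8232 bp on Scaffold1247 (59381 to 67612), with 3.92%, and 6833 bp on Scaffold76 (84831 to 91663), with 4.09%. The most enclosed were those of 14490 bp on Scaffold122 (99.4%), 24581 bp on Scaffold662 (99.0%) and 53368 bp on Scaffold317 (98.9%). By length, median flank coverage was 51.7% for members of 6000 to 8000 bp, 56.4% for 8000 to 10000 bp, 58.1% for 10000 to 20000 bp and 72.1% for the 22 members over 20000 bp with complete windows. These last had a median of 8 flanking peaks.

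The members were then compared with the 389 CRMs of 37 genes whose positions the study tabulated. The letters U, I and D in the CRM names were read as upstream, intronic and downstream. In the genes with CRMs of each letter, those marked I lay between those marked U and D along the scaffold. This order cannot tell upstream from downstream. A total of 103 CRMs (26.5%, Wilson 95% interval 22.3 to 31.1%) overlapped a member by at least 1 bp, and 62 (15.9%) lay wholly under 1 member. The interval covers counting error only, since CRMs of 1 gene share peaks and are not independent. Members covered 20.8% of the CRM bases and peaks of any length covered 66.0%.

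Intronic CRMs were overlapped most often. Members overlapped 69 of 166 intronic CRMs (41.6%, interval 34.3 to 49.2%), 18 of 133 upstream CRMs (13.5%, 8.74 to 20.4%) and 16 of 90 downstream CRMs (17.8%, 11.3 to 26.9%), against 26.5% of all CRMs. These intervals also cover counting error only and are no test between the classes, since CRMs of 1 gene share peaks. Wholly under 1 member were 51 intronic (30.7%), 5 upstream and 6 downstream CRMs, against 15.9% of all CRMs. The order was the same in bases, with 35.7% of intronic, 7.79% of upstream and 11.2% of downstream CRM bases under members. Peaks of any length were also most extensive in introns, with 78.9%, 57.1% and 53.8% of the bases of the intronic, upstream and downstream CRMs. The spacing and number of CRMs per gene differ between the classes, and their part in these shares was not tested.

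Members over CRMs were few among all members. Only 31 of the 530 (5.85%) overlapped a CRM, on 18 scaffolds, and each touched the CRMs of 1 gene. Their lengths ranged from 6047 to 23168 bp with a median of 9269 bp, against a median of 8219 bp for the other 499 members. In those with complete windows, other peaks covered a median of 71.5% of the flanks of the members over CRMs (n = 29), against 54.4% for the other members (n = 457). Another member lay within 10 kb of 62.1% (18 of 29) of them, against 29.98% (137 of 457). These 18 lay in 6 genes, and 10 of them in Chordin and Dach. Without these 2 genes, the share was 42.1% (8 of 19) and the median flank coverage 65.7%. Of the 31, 30 covered parts of 2 or more CRMs and the most was 7. By class, 11 touched intronic CRMs only, 8 intronic and upstream ones, 6 intronic and downstream ones and 4 all 3 classes. The 2 left over touched no intronic CRM.

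A member lay over CRMs of 18 of the 37 genes. In 11 of the 17 of them with intronic CRMs, every intronic CRM was overlapped. Over all genes with intronic CRMs this was 11 of 32. Some of the 11 have few intronic CRMs, only 1 each in Myc and SoxB1, which makes a full overlap easier. Within these 18 genes, 69 of 100 intronic CRMs were overlapped (69.0%), against 18 of 64 upstream (28.1%) and 16 of 49 downstream CRMs (32.7%). The 18 genes were picked by such an overlap, which in itself raises these shares. Over all 37 genes the shares were 41.6%, 13.5% and 17.8%. The upstream CRM next to the gene's other CRMs was overlapped in 13 of 18 genes, but only 5 of the 46 upstream CRMs farther out were. Downstream, the nearest CRM was overlapped in 11 of 18 genes and 5 of 31 farther ones were. These counts also come from the 18 picked genes only. Over all genes with such CRMs, the nearest upstream CRM was overlapped in 13 of 37 and the nearest downstream CRM in 11 of 33. A member is a continuous stretch. Where it reaches out from the intronic CRMs it meets the nearest CRM first, so this order is in part built in. Each gene was also compared by the share of its CRM span, from the first to the last CRM base, under members.

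**Figure D5:**
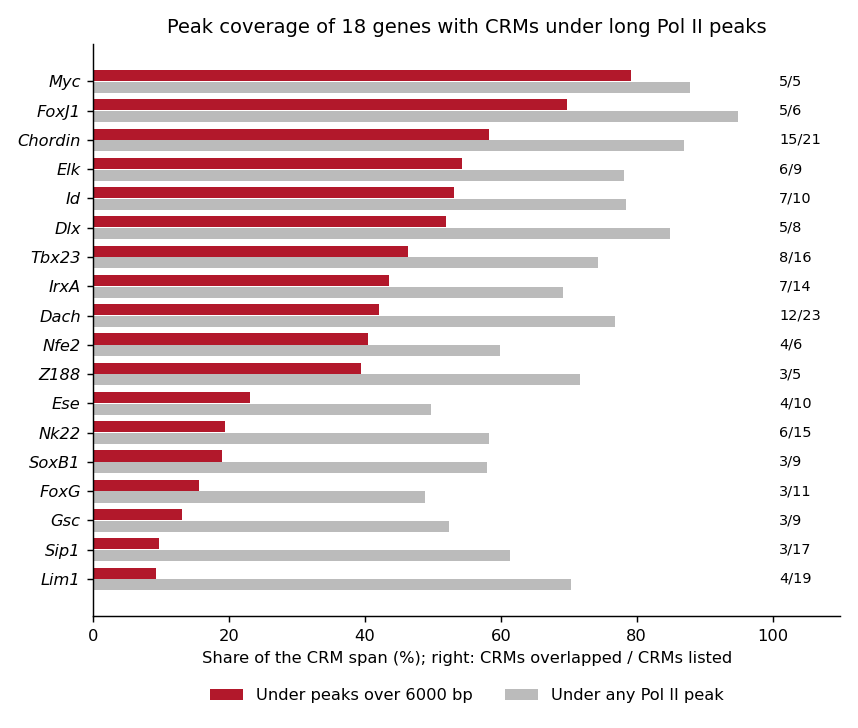
Share of the CRM span, in %, under peaks over 6000 bp (red bars) and under any Pol II peak (grey bars) for the 18 genes with a CRM under a peak over 6000 bp, with the number of CRMs overlapped and listed at the right. The share under long peaks runs from 79.1% in Myc to 9.22% in Lim1, and the share under any peak from 94.96% in FoxJ1 to 48.8% in FoxG.

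Of the 3 signalling genes, only Chordin had members, against 18 of all 37 genes. Members overlapped 15 of the 49 signalling CRMs (30.6%), near the 26.5% of all CRMs. Chordin encodes a secreted antagonist of BMP ligands. Its 6 members overlapped 15 of 21 CRMs, 8 of them whole, and covered 58.3% of a CRM span of 84.7 kb, against 87.0% under any peak. They had 9269 bp (48105 to 57373), 10759 bp (57449 to 68207), 6921 bp (70180 to 77100), 6081 bp (88847 to 94927), 7826 bp (97763 to 105588) and 8859 bp (105718 to 114576). The first reached the downstream CRM, the last an upstream one, and each of the 6 touched intronic CRMs. The first pair was separated by 75 bp and the last pair by 129 bp. Bmp24 and Univin, which encode TGF-β family ligands, had no member in their CRM spans.

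Both helix-loop-helix genes had members, with 12 of their 15 CRMs overlapped, against 26.5% of all CRMs and 18 of all 37 genes. Myc encodes a basic helix-loop-helix transcription factor that promotes growth, and it was the only gene with every CRM overlapped (5 of 5, 2 whole). A member of 10128 bp (Scaffold770, 416478 to 426605) covered 79.1% of its span of 12.8 kb. Id encodes a helix-loop-helix protein without a DNA-binding basic region that sequesters basic helix-loop-helix factors. Its members of 12642 bp (Scaffold376, 114901 to 127542) and 6723 bp (127585 to 134307) were separated by 42 bp, overlapped 7 of 10 CRMs and covered 53.1% of the span.

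Both ets genes had members too, with 10 of their 19 CRMs (52.6%) overlapped, against 26.5% of all CRMs and 18 of all 37 genes. Elk, an ets-domain transcription factor, had members of 8764 bp (Scaffold630, 418596 to 427359) and 11952 bp (427446 to 439397), separated by 86 bp. They overlapped all 5 intronic CRMs and 1 of 3 upstream ones, and covered 54.2% of the span. Ese, another ets-domain factor, had a member of 12829 bp (Scaffold1386, 76746 to 89574) over 4 of 10 CRMs, none of them among its 5 upstream CRMs, and over 23.1% of the span.

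Of the 6 forkhead genes, FoxJ1 and FoxG had members, against 18 of all 37 genes. FoxJ1, a regulator of genes for motile cilia, had 5 of 6 CRMs overlapped and 4 of them whole by a member of 13002 bp (Scaffold378, 179793 to 192794). This covered 69.7% of the span, and all peaks covered 94.96%. FoxG, known for its role in the forebrain of vertebrates, had a member of 6047 bp (Scaffold3, 2073631 to 2079677) over the nearest upstream CRM and 2 downstream CRMs. It has no intronic CRM in the table, and 15.6% of its span lay under this member. FoxB, FoxK, FoxN23 and FoxO had none, so that 8 of the 55 forkhead CRMs were overlapped, against 26.5% of all CRMs.

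Of the 12 genes grouped here as homeobox genes, 6 had members, against 18 of all 37 genes. These members lay over 28 of 143 CRMs (19.6%), against 26.5% of all CRMs. The homeobox group left out Unc41, none of whose 11 CRMs was overlapped. Dlx, a distal-less family factor, had 5 of 8 CRMs overlapped and 52.0% of its span covered by members of 12820 bp (Scaffold119, 785651 to 798470) and 6769 bp (800013 to 806781). IrxA, an Iroquois factor, had the second longest member over a CRM, of 23028 bp (Scaffold688, 230784 to 253811). It ran from the nearest downstream CRM through all 5 intronic CRMs to the nearest upstream one, 7 of 14 CRMs in all, and covered 43.5% of the span. Nk22, an Nk-class factor, had members of 9915 bp (Scaffold901, 364527 to 374441) and 6144 bp (419110 to 425253) over 6 of 15 CRMs. The second of these was the only member over downstream CRMs alone.

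The other 3 homeobox genes had 1 member each over a small part of a long span. Gsc (goosecoid) had 6297 bp (Scaffold468, 359116 to 365412) over 3 of 9 CRMs and 13.1% of the span. Lim1, a LIM homeobox factor, had 10099 bp (Scaffold857, 239828 to 249926) over 4 of 19 CRMs and 9.22% of a span of 109.6 kb. Sip1, a zinc finger homeobox factor, had 6536 bp (Scaffold5, 898497 to 905032) over 3 of 17 CRMs, all intronic, and 9.66% of the span. In Lim1 and Sip1 shorter peaks covered much of the rest, as 70.3% and 61.4% of these spans lay under any peak.

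The longest member over a CRM was in Tbx23, a T-box transcription factor. It had 23168 bp (Scaffold364, 473419 to 496586) and held 6 intronic CRMs whole. A second member of 10098 bp (496679 to 506776), 92 bp away, held the remaining overlapped intronic CRM and the nearest upstream CRM whole. Together they overlapped 8 of 16 CRMs and 46.3% of the span. Dach, a transcriptional cofactor of the dachshund family, had 12 of 23 CRMs under 4 members of 6604 bp (Scaffold1640, 110583 to 117186), 12724 bp (117455 to 130178), 7754 bp (137273 to 145026) and 13330 bp (145936 to 159265). They overlapped 11 intronic CRMs, 1 of them by only 4 bp, and the downstream one, none of the 6 upstream ones, and 42.0% of the span.

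Among the other transcription factors, 3 more genes had 1 member each. Nfe2, a bZIP factor, had a member of 17737 bp (Scaffold62, 374616 to 392352) over all 3 intronic CRMs and the downstream one, 4 of 6 CRMs. It covered 40.4% of the span. Z188, a zinc finger gene, had 8757 bp (Scaffold153, 328569 to 337325) over 3 of 5 CRMs and 39.4% of the span. SoxB1, an HMG-box factor expressed in early ectoderm, had 6684 bp (Scaffold1358, 246727 to 253410) over 3 of 9 CRMs, 1 of each class, and 19.0% of the span.

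No member overlapped a CRM of Atbf1, Bmp24, Dri, Ecr, Fic, FoxB, FoxK, FoxN23, FoxO, GataC, Hnf1, Nk1, Not, Prox, Shr2, Six12, Unc41, Univin or Z13. Ecr and Shr2 are the nuclear receptors of the table. The 19 genes were not free of Pol II peaks. Peaks of any length covered a median of 70.9% of the CRM span in the 18 genes with a member (range 48.8 to 94.96%), against 49.4% in these 19 (17.4 to 77.9%). The 18 genes were picked by a member, and the bases of members count as coverage here. Members alone covered a median of 41.2% of these 18 spans, so a higher share in them is in part built in. The longest peak in each span of the 19 ranged from 326 bp in Ecr to 5330 bp in Not, with a median of 2257 bp. The 19 were set apart by having no member over a CRM, so lengths below the limit of 6000 bp are largely built in. In 6 of the 19, over 60% of the span was under peaks, whereas in the 18 genes with a member the median of 70.9% itself lay above 60%.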

How the data were processed

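Pol II ChIP and Input libraries of 20 h embryos were sequenced as 50 bp reads. According to the methods of the paper, the authors combined the replicates, aligned them with Bowtie 2 (version 2.2.3) to genome version 3.1 and called peaks against combined input with MACS 1.4.2 at default settings. The submitters' processing notes name Bowtie 1.0.1, CASAVA 1.8 and MACS 1.4.2. The deposited list holds values other than signal, namely peak positions in bp, with no score or count, and it does not give the depth per peak.

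Length was end minus start as listed, where starts count from 0, and printed starts were raised by 1 so that both ends are included. Gaps, flanks and overlaps (at least 1 bp) were computed per scaffold in Python 3.11.15 with numpy 2.4.6, pandas 2.3.3 and scipy 1.17.1. Flanks were summarised only where 10 kb on each side lay before the last peak of the scaffold, because scaffold lengths were not used here. Figures were drawn with matplotlib 3.10.9. CRM names and positions came from the study's supplementary table, and none of its measured values were used. Its numbering base is not stated, an uncertainty of 1 bp in covered lengths. Gene annotation of the same build and sequences were not used here. Interval arithmetic was tested on simulated data, where 0 of 3884 covered lengths, 1942 gaps and 200 CRM overlaps were wrong.

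The members and gene lists were chosen with earlier results of these data known. Named were the 10 longest members, the members of the 5 scaffolds with the most, the 3 on either side of the limit and all members over a CRM. Other peaks shown for gaps, clusters and flanks were chosen after their values were seen. The split of flanks by neighbouring members and scaffolds, the counts of nearest CRMs and the share without Chordin and Dach were added after the data were seen. Alternatives were tried for the length limit, the counting of end positions, the joining of close peaks, the window, the minimum overlap and overlapping CRMs. Leaving out the shortest peaks, short scaffolds, the scaffold with the most members and the gene with the most overlapped CRMs was also tried.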

Additional observations from a re-analysis of the deposited data

How the results depend on the processing

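Of 99 values recomputed under 17 alternatives, 77 stayed within 1.5 times the reported count or median, or within the Wilson 95% interval of the reported share, and 22 did not. Counting both end positions in the length and leaving out peaks shorter than 50 bp were among the alternatives. Each left the number of long peaks at 530 and could move little. All values under them stayed within the margin, so the tally of 77 says less than its size. The share without Chordin and Dach, an alternative added after the data were seen, stands in the report. With a limit of 5000 bp there were 787 long peaks on 491 scaffolds, which is within that margin. With a limit of 8000 bp there were 289 long peaks on 214 scaffolds, over 31.9% of the intronic CRMs. With 10000 bp there were 184 on 151 scaffolds, with a median length of 13238.5 bp and 1.499% of peak bases. Of these, 22.2% had another within 10 kb, and they overlapped 60 CRMs and 25.9% of the intronic ones. Joining peaks separated by at most 200 bp gave 1071 long peaks on 649 scaffolds, with 5.50% of peak bases, a median gap of 319.5 bp and 53.0% of intronic CRMs. A window of 5 kb gave 25.6% with another member and a median of 7 other peaks, and 20 kb gave 37.95% and 27. Counting only CRMs wholly under 1 member gave 62 CRMs and 30.7% of the intronic ones. Under each alternative tried for them, the number of genes ranged from 12 to 21 and the median flank coverage from 50.7 to 59.7%.

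No paired analysis was possible because the samples were merged before peak calling. Leaving out a replicate was not run for that reason, nor was a stricter peak threshold, since the list has no score. Positions do not give the level of Pol II within a long peak or the reads in the gaps between peaks.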

Other observations

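Joining peaks separated by at most 200 bp placed a stretch of over 6000 bp in the CRM spans of 3 more genes than the 18 described. These were Not (9129 bp), a homeobox gene, Bmp24 (6950 bp), which encodes a TGF-β family ligand, and FoxN23 (6111 bp), a forkhead gene. In Chordin, Tbx23 and Dach the longest joined stretch then measured 29800, 41397 and 28327 bp. The joined stretches that hold the 530 members numbered 487, of which 36 contained 2 or 3 of them (79 members), and the longest was the pair on Scaffold317 with 106756 bp. At most 500 bp between peaks gave 448 stretches with a member, and the longest ran from 153723 to 296272 on Scaffold317 over 142550 bp.

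Near Dri, whose CRMs none of the members overlapped, a member lay 3465 bp outside the CRM span. The nearest member to the CRM span of Nk1 was 35173 bp away and that of FoxN23 52593 bp away. Gsc and Prox share Scaffold468 with the 31376 bp member, which overlapped no CRM of either.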
